A study of Mus musculus with 12 samples.

Results

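Signal transducers and activators of transcription (STATs) and their feedback inhibitors, the suppressors of cytokine signalling (SOCS), were examined in the dorsal raphe (DR), the midbrain nucleus that holds most of the forebrain-projecting serotonin neurons. The genes were chosen by symbol: Stat2, Stat3, Stat4, Stat5a, Stat5b, Stat6, Socs1, Socs2 and Socs3, which are 9 of the 24421 genes listed in the count files. RNA was sequenced from the DR of 4 control mice (2 female, 2 male) and 8 STAT3 KO mice (4 female, 4 male) of a C57BL/6 x 129 background, with 1 library per animal. STAT3 KO mice were Sert Cre/+; Stat3 fl/fl, so that Stat3 was deleted where the serotonin transporter promoter drives Cre. Controls were Sert Cre/+; Stat3 fl/+ littermates, which carried the same Cre and 1 floxed allele, so both groups had at least 1 deletable copy in these cells. The animals were young adults and were housed singly. The samples were dissected squares of whole tissue, in which fewer cells of a type and less RNA per cell cannot be told apart.

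A cytokine or hormone receptor activates Janus kinases (JAKs), which phosphorylate STAT proteins. These then form dimers through their SH2 domains and enter the nucleus to switch on target genes. SOCS genes are among those targets, and their proteins bind the receptors or JAKs and shut the pathway off. Loss of a STAT can therefore lower a feedback gene or leave room for another STAT, and both were looked for here by comparing STAT3 KO with control animals.

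The allele of the KO removes exons 18 to 20 of Stat3, which code for part of the SH2 domain. They are shown because a count over the whole gene does not separate them from the rest of the transcript. In the 24-exon coding transcript of GENCODE vM21 they span chr11:100893665-100894216 (mm10, minus strand) and hold 288 of 4516 bases, or 6.38%. This is 96 whole codons with no base left over. The joined exons read as follows, with exon 19 in capitals between exons 18 and 20.
Stat3 exons 18 to 20: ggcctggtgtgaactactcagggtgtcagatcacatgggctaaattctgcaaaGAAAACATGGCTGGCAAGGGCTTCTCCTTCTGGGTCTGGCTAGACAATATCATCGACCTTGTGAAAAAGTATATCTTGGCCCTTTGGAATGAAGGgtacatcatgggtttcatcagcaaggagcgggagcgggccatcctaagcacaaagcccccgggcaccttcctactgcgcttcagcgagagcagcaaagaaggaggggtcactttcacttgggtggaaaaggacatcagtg
The value given next assumes that reads fall evenly along this transcript. Loss of every read of these exons in all cells of the tissue would lower the Stat3 count by 0.095 (log2 scale). That value is relative to a gene with no deletion. Controls carried a floxed allele as well, so the largest such difference between KO and control would be smaller than this.

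STAT dimers bind the palindrome TTCNNNGAA (N stands for any base; the word is its own reverse complement, so both strands are covered). RefSeq promoter windows, from 250 bases before to 50 bases after a start site (GRCm38.p6), were found for 8 of the 9 genes, 11 windows in all. Socs3 was the gene among these 8 whose window held the word, which stood 154 bases before the start site at chr11:117969512-117969520. Windows of 2 related genes outside the 9 were also examined, and not those of the rest of the family. The window of Cish, a SOCS family member known as a STAT5 target, held the word 2 times. These began at the start site, at chr9:107296659-107296678, and the other related window held none. The letters are shown because both genes are measured below, with the fixed bases of the word in capitals.
Socs3 (minus strand): TTCttaGAA
Cish (plus strand): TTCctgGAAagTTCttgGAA
The word occurs in 8.30% of all 32851 windows and 2 or more times in 0.457% of them. A doubling as at Cish is thus rarer than a match as near Socs3. A match is a description of the letters alone.

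Library depth was 24379588 to 29645210 counts on genes, at which the floor of 3 counts corresponds to 0.101 to 0.123 CPM (counts scaled to a common library size). Tph2, which codes for the serotonin-producing enzyme, was at 540 to 879 CPM and Slc6a4, the serotonin transporter, at 151 to 405 CPM over the 12 animals, so the labelled tissue carried its defining transcripts in every sample. Transcripts of neighbouring tissue differed between animals: summed markers of forebrain excitatory neurons reached 147 CPM in control 4 against at most 59.1 CPM in any other library, and choroid plexus markers reached 234 CPM in STAT3 KO 8 and 227 CPM in STAT3 KO 16 against at most 19.4 CPM elsewhere. Summed cerebellar markers were highest in STAT3 KO 16 (348 CPM), control 3 (210 CPM) and STAT3 KO 10 (157 CPM), against 74.8 to 119 CPM elsewhere. Of these markers, Pvalb alone was at 71.4 to 148 CPM over the 12 animals. Pcp2 was higher in STAT3 KO 14 (7.18 CPM) and STAT3 KO 7 (6.91 CPM) than in control 3 (3.03 CPM). Ppp1r17 was too (5.57 and 7.05 against 4.37 CPM). Gabra6 (0.550 and 0.917 against 16.9 CPM) and Cbln3 (2.16 and 2.86 against 38.4 CPM) were not. The fit without 5 libraries given below keeps STAT3 KO 7 and 14. Of the marker lists, 0 genes passed the adjusted test for genotype. At an unadjusted p below 0.05, 2 of 4 tested choroid plexus genes and 2 of 5 cerebellar genes were higher in KO, 1 of 5 forebrain and 1 of 5 oligodendrocyte genes were lower, 1 of 5 astrocyte genes was higher and 1 lower, and 0 of 5 microglial, endothelial and serotonergic genes passed. All 5 forebrain, oligodendrocyte and microglial genes had log2 fold changes below 0. Of all genes tested, 3.61% were higher and 4.05% lower at that p, and 50.6% had log2 fold changes below 0. The part of these differences in the results below was not tested.

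The 9 genes differed widely in level. Per kilobase of exon, Stat3 was highest at 10.7 CPM per kb (mean of 12 animals), followed by Stat5b at 9.69, Stat2 at 6.53, Stat6 at 2.46, Socs2 at 1.61, Stat5a at 1.10, Socs3 at 0.605, Socs1 at 0.436 and Stat4 at 0.0456 CPM per kb. The ranges over the animals did not overlap for the neighbours Stat5b and Stat2, Stat2 and Stat6, Stat6 and Socs2, and Socs1 and Stat4. They overlapped for Stat3 and Stat5b, Socs2 and Stat5a, Stat5a and Socs3, and Socs3 and Socs1, although each animal's own order was kept in 11, 12, 11 and 10 of 12 animals, respectively. The order also rests on the exon length used: with the exons of all annotated transcripts in place of the basic set, Stat5b stood above Stat3 and Socs2 moved from rank 5 to rank 7. Among SOCS genes outside the 9, Socs5 was at 30.4 CPM per kb.

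**Figure D1:**
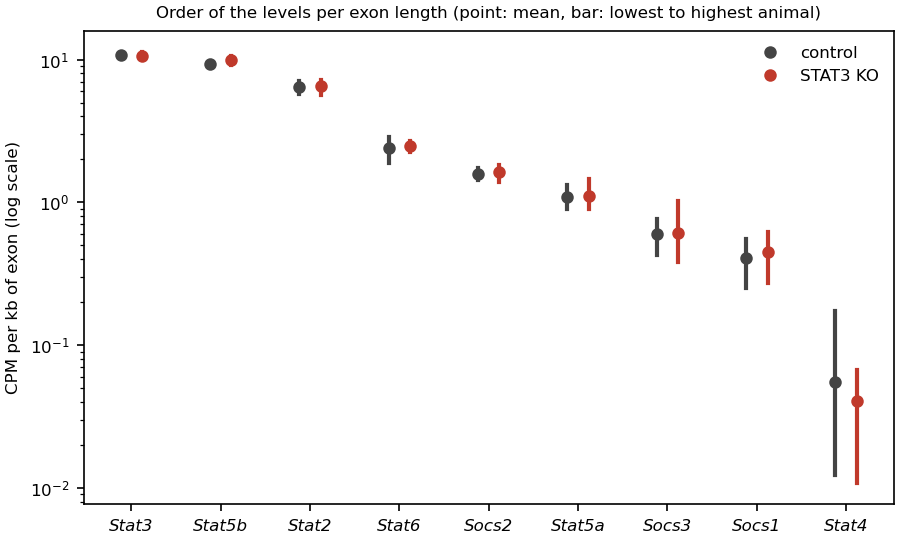
Level per exon length (CPM per kilobase, log axis) of the 9 genes in controls (grey) and STAT3 KO (red), in order of the mean over all 12 animals. Points are group means and bars run from the lowest to the highest animal. Levels fall from about 10.7 CPM per kb for Stat3 to 0.0456 for Stat4, and the bars of both groups overlap for each gene.

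Stat3 itself showed no detectable difference in its whole-gene count. Control 13 had 64.7 CPM, control 4 had 66.2, control 3 had 68.0 and control 11 had 67.7, while STAT3 KO animals had 62.7 CPM at the lowest, 66.4 at the median and 70.1 at the highest. The 4 controls lay inside the range of the KO. Group means were 66.6 ± 1.49 (SD, n = 4) and 66.3 ± 2.72 CPM (SD, n = 8). The log2 fold change was -0.0077 (SE 0.039, adjusted p = 0.992, edgeR's quasi-likelihood test). Its 95% interval ran from -0.091 to 0.076, which is a change of -6.10% to 5.38%. The interval describes the tissue as a whole, and as the counts do not resolve exons, they give no check of the deletion. Between animals Stat3 was the steadiest of the 9 genes, with a coefficient of variation of 3.48% where counting error alone gives 2.34%.

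None of the tested genes among the 9 passed the adjusted test for genotype. Of the 9 genes, 8 had enough counts to be tested, all but Stat4. By edgeR's quasi-likelihood test 0 of these 8 had an adjusted p below 0.05, against 0 of all 15453 genes tested (0%), and 0 of 8 had an unadjusted p below 0.05, against 7.66% of all genes. DESeq2 likewise called 0 of 8. In the exact permutation test over the 495 ways to divide the animals, two-sided with a smallest possible p of 0.00202, 0 of 8 fell below 0.05, against 7.10% of all genes. The animals of the groups did not overlap in 0 of 8 genes, against 0.447% of all genes. The log2 fold changes of 7 of 8 were above 0, with a median over the 8 genes of 0.032 beside -0.0011 over all genes. These counts do not show that the groups were alike, and the intervals below give the sizes of change left within reach.

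**Figure D2:**
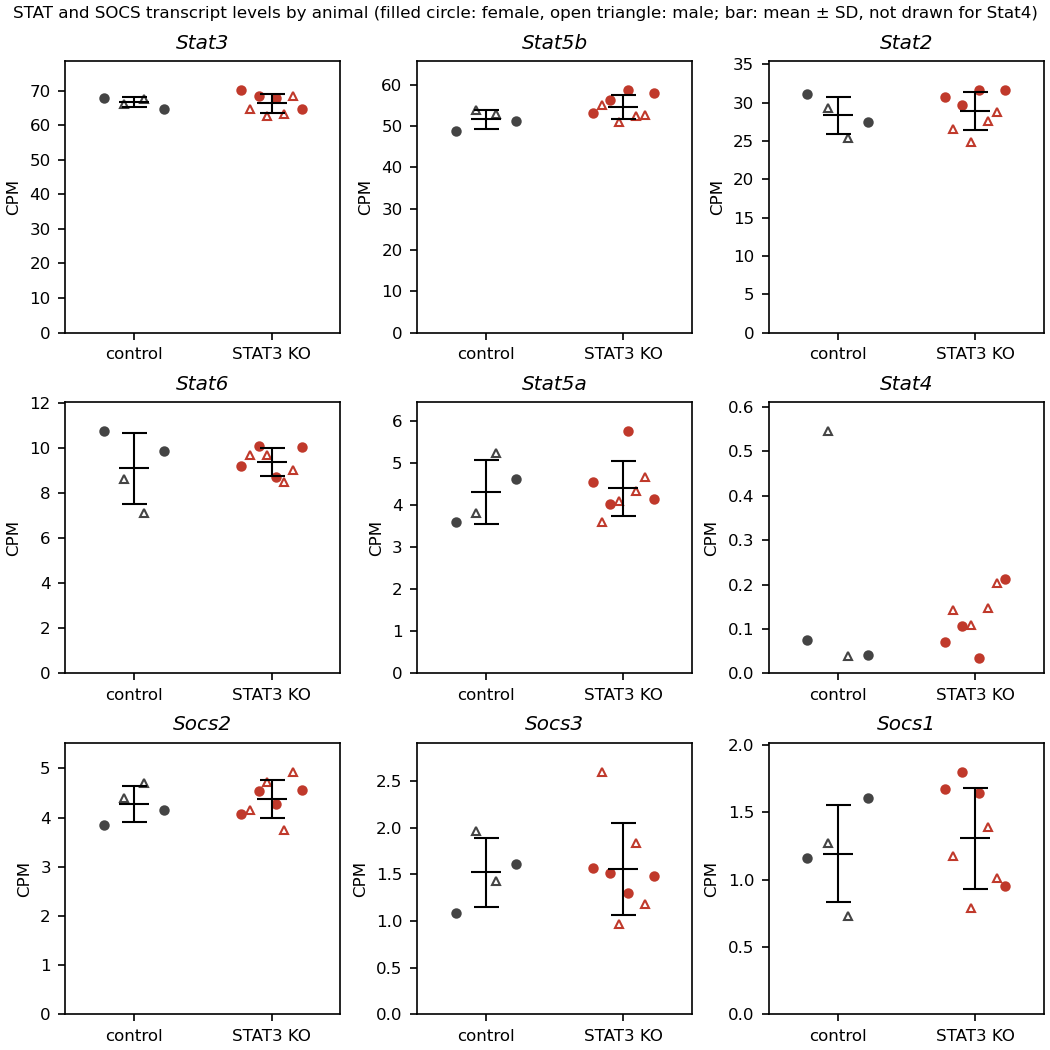
CPM of the 9 genes in each animal, by group (filled circles are females, open triangles are males, bars are the mean ± SD). The animals of the groups overlap in every panel, the single high control point in the Stat4 panel is control 4, and the single high STAT3 KO point in the Socs3 panel is STAT3 KO 6.

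Stat5b and Stat5a transduce growth hormone and prolactin signals and are the STATs nearest to Stat3 in the genome. With all 12 animals in the fit, Stat5b came closest to a difference. Its level was 51.2 CPM in control 13, 53.9 in control 4, 48.7 in control 3 and 53.0 in control 11, and 50.9 CPM at the lowest, 54.2 at the median and 58.7 at the highest in STAT3 KO. Of the KO animals, 7 of 8 lay above the control mean of 51.7 CPM, yet the ranges overlapped. Stat5b had a log2 fold change of 0.081 (SE 0.047, 95% interval -0.020 to 0.18, adjusted p = 0.742, edgeR's quasi-likelihood test), with a permutation p of 0.103 in the exact test. The highest levels were those of STAT3 KO 10 (58.7 CPM) and STAT3 KO 16 (58.1 CPM), which were among the 3 libraries with the most cerebellar marker transcripts. The other of these 3, control 3, had the lowest Stat5b of all 12 animals. Without the 5 libraries with raised summed markers of neighbouring tissue (STAT3 KO 8, 10 and 16 and controls 3 and 4) the log2 fold change was 0.052. In that fit Stat2, not Stat5b, had the smallest p of the 8 tested genes (unadjusted p = 0.124, edgeR's quasi-likelihood test). The interval over all animals reaches from -1.35% to 13.4%, so a rise of Stat5b above 13.4% lay outside it.

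Stat5a was far lower. The controls numbered 13, 4, 3 and 11 had 4.62, 3.82, 3.59 and 5.24 CPM, and STAT3 KO animals had 3.59 CPM at the lowest, 4.23 at the median and 5.76 at the highest. Its log2 fold change was 0.028 (SE 0.13, 95% interval -0.25 to 0.31, adjusted p = 0.991, edgeR's quasi-likelihood test). Both genes are uncertain to a small extent, since 5.12% of the 75-base words of Stat5a and 6.99% of those of Stat5b occur in the other gene. Stat5a and Stat3 also share 72 exon bases on opposite strands (chr11:100885098-100885169, mm10), and whether strand was used in counting is not given in the sources used here.

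Stat2, which acts downstream of type I interferon, was at 27.5, 29.2, 31.2 and 25.4 CPM in controls 13, 4, 3 and 11. STAT3 KO animals were at 24.9 CPM at the lowest, 29.2 at the median and 31.6 at the highest. Its log2 fold change was 0.030 (SE 0.071, 95% interval -0.12 to 0.18, adjusted p = 0.962, edgeR's quasi-likelihood test). The group ranges lay almost on top of each other.

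Stat6, which transduces interleukin 4 and interleukin 13 signals, was at 9.89, 8.65, 10.8 and 7.13 CPM in controls 13, 4, 3 and 11, and from 8.50 over a median of 9.45 to 10.1 CPM in STAT3 KO. Here the controls spread more widely than the KO (SD 1.58 against 0.609 CPM) and held both the highest and the lowest animal. Stat6 had a log2 fold change of 0.042 (SE 0.096, 95% interval -0.16 to 0.25, adjusted p = 0.960, edgeR's quasi-likelihood test).

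Stat4, which transduces interleukin 12 signals mainly in lymphocytes, was barely detected. Control 4 had 15 counts, while the other controls had 1, 1 and 2 counts and the KO animals 1 to 6 counts. In 7 of 12 libraries the count was at or under the floor of 3, so no fold change is given. The library with the most Stat4 was also the one with the most forebrain marker transcripts, as given above, and their part in the count was not tested. In addition, 1937 exon bases of Stat4 lie within the annotated gene Gm28177.

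Summed over the 5 STAT genes examined beside Stat3, the level was 93.6 ± 2.21 CPM in controls (SD, n = 4, 90.8 to 96.1) and 97.5 ± 5.30 CPM in STAT3 KO (SD, n = 8, 89.7 to 104.7). Per kilobase of exon, Stat3 made up 35.6 ± 0.918% of the 6 STATs examined in controls and 34.7 ± 1.09% in KO. Both quantities overlapped between the groups and are given as descriptions.

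Socs3 is a classical target of STAT3 and inhibits receptors that use gp130 as well as the leptin receptor, and so is the gene for which loss of feedback was first examined. It had 1.61, 1.96, 1.08 and 1.43 CPM in controls 13, 4, 3 and 11, and 0.971 CPM at the lowest, 1.50 at the median and 2.60 at the highest in STAT3 KO. The KO held both extremes: STAT3 KO 6 with 73 counts and STAT3 KO 8 with 27 counts. The log2 fold change was 0.032 (SE 0.23, adjusted p = 0.993, edgeR's quasi-likelihood test), with a permutation p of 0.970 in the exact test. At this depth and spread the 95% interval ran from -27.5% to 44.1%, so a smaller loss of Socs3 could not have been seen. Per 100 CPM of Stat3, Socs3 amounted to 2.29 ± 0.581 CPM in controls (SD, n = 4) and 2.35 ± 0.782 CPM in KO (SD, n = 8).

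The library with the most Socs3, STAT3 KO 6, also had the most Alas2, a gene of haem synthesis in red blood cells, at 19 CPM against 1.83 to 4.95 CPM in the others. The 3 other blood markers examined, the haemoglobin genes Hbb-bs, Hbb-bt and Hba-a1, were listed at 0 in every library. Summed over 5 endothelial markers, STAT3 KO 6 was highest at 194 CPM, close to control 4 at 187 CPM and to STAT3 KO 8, which had the least Socs3, at 185 CPM. Of these 5 markers, Cldn5 (54.9 CPM) and Pecam1 (33.1 CPM) were highest in STAT3 KO 6, while Flt1, Cdh5 and Kdr were not. Without STAT3 KO 6 the log2 fold change of Socs3 was -0.11. The part of blood or vessel RNA in the Socs3 count was not tested.

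Socs1, which restrains interferon signalling, had 1.61, 1.27, 1.16 and 0.732 CPM in controls 13, 4, 3 and 11, and from 0.792 over a median of 1.28 to 1.80 CPM in STAT3 KO. Its log2 fold change was 0.13 (SE 0.25, 95% interval -0.39 to 0.66, adjusted p = 0.952, edgeR's quasi-likelihood test). Socs1 and Socs3 were the most variable of the tested genes, with coefficients of variation of 28.3% and 28.4% where counting error gives 16.9% and 15.3%.

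Socs2, which restrains the growth hormone receptor, had 4.16, 4.40, 3.85 and 4.70 CPM in controls 13, 4, 3 and 11, and from 3.74 over a median of 4.42 to 4.93 CPM in STAT3 KO. Its log2 fold change was 0.032 (SE 0.096, 95% interval -0.17 to 0.24, adjusted p = 0.970, edgeR's quasi-likelihood test). The animals differed no more in Socs2 than counting error alone gives, with a coefficient of variation of 8.37% beside 9.13%.

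**Figure D3:**
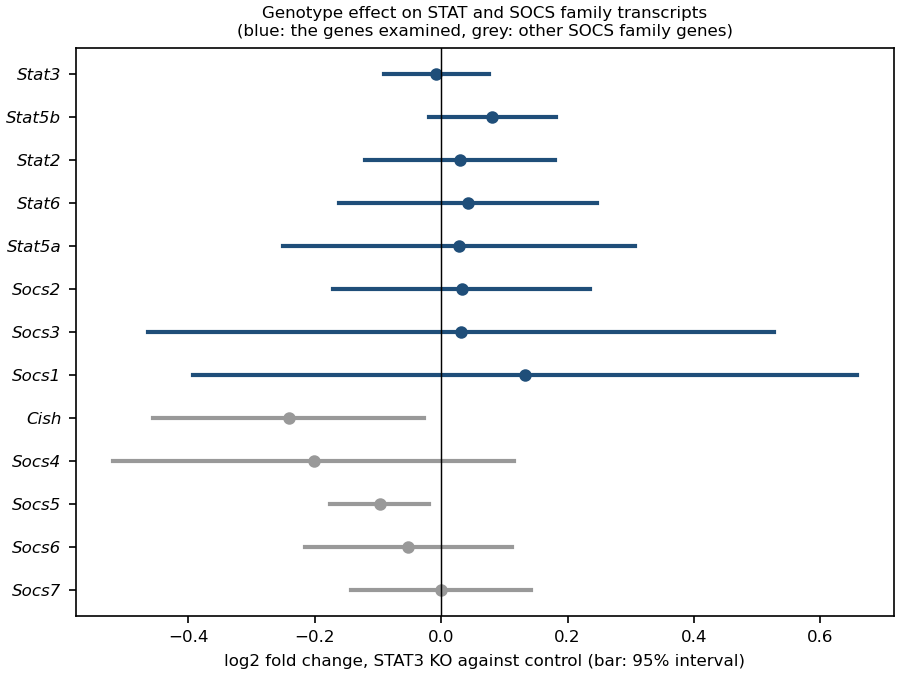
Log2 fold change of STAT3 KO against control with its 95% interval for the 8 tested genes (blue) and for 5 other SOCS family genes (grey). All blue intervals include 0, and the grey intervals of Cish and Socs5 lie below 0 without adjustment for the number of genes tested.

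Of 5 other SOCS family genes, 0 passed the adjusted test and 2 had lower levels at an unadjusted p below 0.05, against 4.05% of all genes tested. Cish, an inhibitor of STAT5 signalling, was at 5.90, 5.75, 6.02 and 4.97 CPM in controls 13, 4, 3 and 11, and from 3.88 to 5.26 CPM in STAT3 KO. All KO animals (8 of 8) lay below the control mean, though control 11 lay inside the KO range. The log2 fold change was -0.24 (SE 0.10, p = 0.030, adjusted p = 0.620, edgeR's quasi-likelihood test; exact permutation p = 0.0384). Socs5, the most abundant SOCS gene per length, had a mean of 147 ± 5.53 CPM in controls (n = 4) and 138 ± 4.62 CPM in KO (n = 8). Its log2 fold change was -0.097 (SE 0.037, p = 0.0187, adjusted p = 0.615, edgeR's quasi-likelihood test; exact permutation p = 0.0121), and again 8 of 8 KO animals were below the control mean. Both fail the correction for all genes tested.

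The rest of the pathway likewise held no gene past the adjusted test, and the genes named next are those with the smallest p of each list. Of 4 JAK genes, 0 had an unadjusted p below 0.05, and Jak2, the kinase of the growth hormone and leptin receptors, had a log2 fold change of -0.073 (adjusted p = 0.733, edgeR's quasi-likelihood test), followed by Jak3 at -0.11 (adjusted p = 0.911). Of 16 receptors that signal through STATs, 2 were lower and 0 higher at an unadjusted p below 0.05, where 4.05% of all genes were lower, and 10 of 16 had log2 fold changes below 0, against 50.6% of all genes. These were Lifr, the receptor of leukaemia inhibitory factor, at 73.6 ± 8.74 CPM in controls and 63.9 ± 4.80 CPM in KO, and Lepr, the leptin receptor, at 6.30 ± 1.61 and 4.86 ± 0.821 CPM. In the exact permutation test p was 0.0283 for Lifr and 0.0808 for Lepr. Among 10 other inhibitors 0 reached an unadjusted p below 0.05, and the phosphatase gene Ptpn2 had the smallest p (log2 fold change 0.12, adjusted p = 0.705, edgeR's quasi-likelihood test), followed by Pias2 (-0.051, adjusted p = 0.837).

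Genes known as targets were counted as a further readout of signalling. Of 18 STAT3 targets, 16 were tested, of which 1 was higher and 0 were lower at an unadjusted p below 0.05, against 3.61% and 4.05% of all genes. Their median log2 fold change was -0.021. The gene at that p was Vim, a structural filament gene of glia and vessels, at 37.0 ± 1.51 CPM in controls and 45.9 ± 5.55 CPM in KO. The groups did not overlap in Vim (35.0 to 38.5 against 38.8 to 54.9 CPM), which was so for 0.447% of all genes tested. Vim had a log2 fold change of 0.31 (SE 0.082, adjusted p = 0.615, edgeR's quasi-likelihood test). Next by p was Bcl2l1, an inhibitor of cell death, at a log2 fold change of -0.093 (adjusted p = 0.730, edgeR's quasi-likelihood test), with 7 of 8 KO animals below the control mean. Of 5 STAT5 targets, all had log2 fold changes below 0, and 2 had an unadjusted p below 0.05. Apart from Cish and Igf1, these targets were also on the STAT3 list, and Cish was already counted among the SOCS genes. The counts are therefore not independent. Of all genes tested, 50.6% had log2 fold changes below 0 and 4.05% were lower at that p. The genes were Cish, described above, and the growth factor gene Igf1, at 8.27 ± 2.36 CPM in controls and 6.21 ± 0.805 CPM in KO (adjusted p = 0.615, edgeR's quasi-likelihood test). Of 10 genes known as interferon targets, Mx1 was higher and Oas2 lower at an unadjusted p below 0.05, both antiviral genes of low level, and 9 of 10 had log2 fold changes above 0. Their means were 0.258 ± 0.0253 CPM in controls and 0.483 ± 0.211 CPM in KO for Mx1, and 1.11 ± 0.219 and 0.827 ± 0.163 CPM for Oas2. In the exact permutation test p was 0.105 for Mx1 and 0.0424 for Oas2. Of 9 immediate early genes, 8 were tested and 0 had an unadjusted p below 0.05. Arc and Egr1, with the smallest p, had log2 fold changes of -0.13 (adjusted p = 0.766) and -0.30 (adjusted p = 0.877) by edgeR's quasi-likelihood test.

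Animals of both sexes were compared next. For male minus female, adjusted for genotype, 0 of 8 genes passed the adjusted test, against 0.0841% of all genes, and 2 of 8 had an unadjusted p below 0.05, against 7.20% of all genes. Stat2 was at 30.4 ± 1.60 CPM in females (n = 6) and 27.1 ± 1.76 CPM in males (n = 6), a log2 difference of -0.16 (SE 0.053, adjusted p = 0.595, edgeR's quasi-likelihood test). Socs1 was at 1.47 ± 0.335 CPM in females and 1.06 ± 0.265 CPM in males, a log2 difference of -0.47 (SE 0.20, adjusted p = 0.677, edgeR's quasi-likelihood test). Females and males overlapped in both genes.

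**Figure D4:**
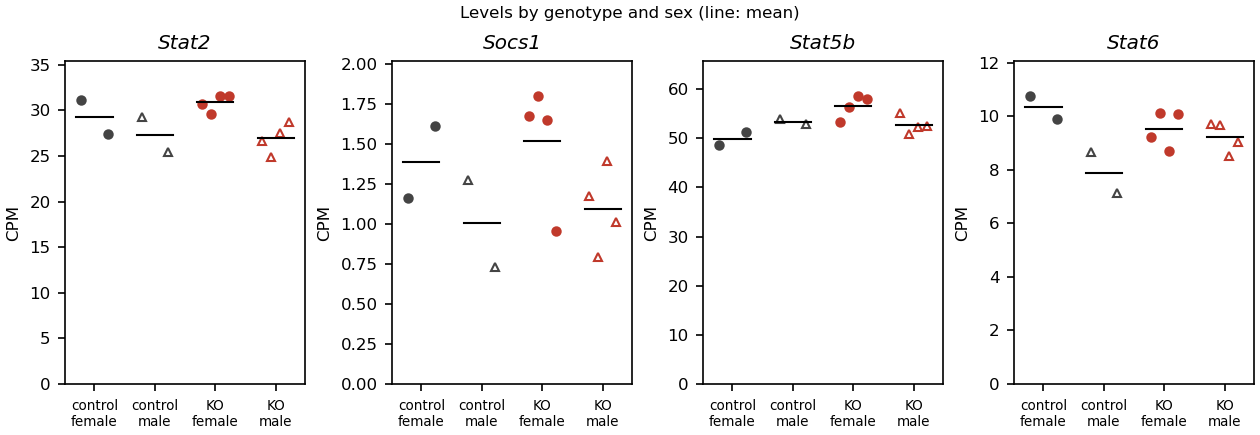
CPM of Stat2, Socs1, Stat5b and Stat6 by genotype and sex, with 2 animals of each sex in controls and 4 in STAT3 KO (lines are means). Stat2 and Socs1 are lower in males on average, the Stat5b values of KO females lie above those of control females, and the mean of Stat6 is lowest in control males.

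The effect of genotype in males minus that in females was tested as an interaction. Again 0 of 8 genes passed the adjusted test, against 0% of all genes, and 2 of 8 had an unadjusted p below 0.05, against 5.49% of all genes. For Stat5b the mean log2 CPM of KO minus control was 0.18 in females and -0.019 in males (interaction -0.20, SE 0.083, adjusted p = 0.907, edgeR's quasi-likelihood test). For Stat6 it was -0.12 in females and 0.23 in males (interaction 0.34, SE 0.16, adjusted p = 0.909, edgeR's quasi-likelihood test). With 2 controls per sex, each of these values rests on few animals.

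Whether the 8 tested genes varied together was examined over the animals. Of 28 pairs, 0 had an adjusted p below 0.05 by permutation. The strongest was Stat5a with Stat6 (Pearson's r = -0.62, permutation p = 0.031, adjusted p = 0.662; Spearman's rho = -0.55, permutation p = 0.066, adjusted p = 0.699; n = 12). Leaving out the 2 animals farthest from the median of Stat5a gave r = -0.38, and within the 8 KO animals r was -0.66 (exact permutation p = 0.066). Across all tested genes, those whose log2 CPM followed Stat3 most closely over the 12 animals were Csmd2 (r = 0.857), Alpk1 (0.852) and Arntl2 (0.808), and for Socs3 they were Prcc (0.860), Klhdc4 (0.850) and Kdm1a (0.847). These are the highest of 15453 values each and are given as a description.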

How the data were processed

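The authors sequenced 1 library of DR RNA per animal as 75-base single reads and mapped them to mm10, with STAR 2.5.0b and DESeq2 1.6.3 named in the submitters' processing notes. The deposited files hold raw counts per gene symbol, and the counter, annotation and use of strand are not given in the sources used here. Reads of no single gene were left out (84.2 to 86.1% of counts lay on genes). Groups and sex came from the labels and numbers from the titles, which pair no animals. Nothing in the labels gives a batch, and that animals are separate is taken from the study's methods.

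Genotype was tested with edgeR 4.0.16 (R 4.3.3; quasi-likelihood, TMM scaling, filterByExpr with a minimum count of 10) on 15453 genes with Benjamini-Hochberg adjustment. CPM used TMM-scaled library sizes. Sex entered with genotype, and the interaction was fitted with both. Differences in mean log2 CPM (prior count 2) were tested by exact permutation, and pairs of genes by 100000 permutations. Differences on the log2 CPM scale understate changes of low genes. The fits of genotype, sex and interaction and the permutation test of group differences were tested on simulated data. The 3-count floor covers counting error only. Positions and exon lengths are from GENCODE vM21 and promoters from RefSeq (GRCm38.p6). The members and lists were chosen with earlier results of these data known. Named were the 9 genes, the genes of each list past the adjusted test or else the 2 of smallest p, Tph2, Slc6a4 and the 3 genes most correlated with Stat3 and with Socs3. Marker genes were named after their values were seen. A further family gene is not reported here. Alternatives were DESeq2 1.42.0, limma 3.58.1, other scalings and filters, a fit with sex as a term, and fits that omit 1 animal at a time.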

Additional observations from a re-analysis of the deposited data

Results flagged for a closer look

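Stat4 in control 4 stood apart from the other controls, with a gap to its nearest neighbour of 0.836 of the range of the 4 controls on the log2 CPM scale. The count was 15 against 1, 1 and 2. The same library had the highest summed forebrain markers, 147 CPM against at most 59.1 CPM in the others, and their part in the Stat4 count was not tested. Dixon's test was applied to 18 groups of values, for which chance gives about 0.9 such cases.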

How the results depend on the processing

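No paired analysis was possible because the animal numbers are not shared between the groups. None of the 8 tested genes (Stat2, Stat3, Stat5a, Stat5b, Stat6, Socs1, Socs2, Socs3) passed an adjusted p of 0.05 under the alternatives run, which did not cover the other SOCS genes. The number of genes called for genotype, 0 by edgeR's quasi-likelihood test, was 6 with DESeq2, 3 with edgeR's likelihood ratio test and 0 to 1 with each animal left out (1 without control 4). Of the 8 genes, 0 had an unadjusted p below 0.05, but 1 (Stat5b) with library size alone, which moved the median of all genes to 0.022, and 0 to 1 with each animal left out (Stat5b without STAT3 KO 8). For sex, 13 genes were called and 24 with DESeq2. For the interaction, 0 genes were called and 2 with DESeq2, while 2 of the 8 genes at unadjusted p became 1 with DESeq2 and 1 without the count filter. The log2 fold change of Stat3 turned to 0.015 with library size alone (0.014 as a difference in mean log2 CPM) and to 0.0020 with limma-voom. A further fit left out the 5 libraries with raised summed markers of neighbouring tissue (control 3 and 4, STAT3 KO 8, 10 and 16), chosen after seeing the data. There the log2 fold change was 0.019 for Stat3, -0.22 for Stat5a, -0.046 for Socs2, 0.052 for Stat5b and 0.12 for Stat2. It was 0.13 for Stat6, 0.28 for Socs1 and 0.20 for Socs3, and 0 of 8 genes had an unadjusted p below 0.05.

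With each animal left out, the sign of Stat5b held and that of the other 7 genes, none of them called, turned at least 1 time. Log2 fold changes ran from -0.018 to 0.0047 for Stat3 (turned without control 3 or 11, STAT3 KO 8 or 14), -0.014 to 0.082 for Stat2 and -0.054 to 0.14 for Stat6 (control 11), -0.049 to 0.14 for Stat5a (control 3 or 4, STAT3 KO 10), -0.036 to 0.31 for Socs1 (control 11), -0.013 to 0.085 for Socs2 (control 3) and -0.11 to 0.19 for Socs3 (control 3, STAT3 KO 6 or 14). Differences in mean log2 CPM ran from -0.022 to 0.0027 for Stat3, -0.021 to 0.077 for Stat2, -0.055 to 0.14 for Stat6, -0.053 to 0.13 for Stat5a, -0.080 to 0.27 for Socs1, -0.018 to 0.077 for Socs2 and -0.13 to 0.14 for Socs3. The cause of these changes was not tested. Depth limits Stat4 most, followed by Socs1 and Socs3.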
